A study of Mus musculus with 4 samples.

Results

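The imprinted genes described here are 37 genes of 16 loci in the mouse genome at which the paternal and the maternal copy are unequally used. They were chosen by symbol, and all 37 are among the 24982 genes of the count table. Forebrain was micro-dissected from mouse embryos of age E10.5, counted in embryonic days, and its RNA was sequenced. The 2 conditional knockout (cKO) libraries carried the genotype Sox1 cre+/-; Chd7 f/f, that is, both Chd7 alleles floxed and a Cre recombinase named for Sox1, a gene of the early neural tube. The 2 control libraries are labelled Chd7 +/f, that is, a single allele is floxed and no Cre is named. The floxed allele is thus present in both groups, and an effect of the Cre allele cannot be told apart from that of losing Chd7. Cells in which this Cre was not active keep Chd7. Whether each library was a single embryo or pooled embryos is not stated in the labels, and p-values therefore measure only how far these libraries spread, which may be technical. The counts add up the reads of both alleles, so which parental copy was used was not measured, and the allele named for each gene is background.

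Genomic imprinting marks a gene in the egg or the sperm by DNA methylation at an imprinting control region, and the mark is kept in the embryo so that the gene is used mainly from the copy of a single parent. The genes lie in clusters, often with a long non-coding RNA that is expressed from the opposite copy to the protein-coding genes it neighbours. Many act on growth and metabolism of the embryo, and several are abundant in the developing brain. CHD7, the gene product removed here, is an ATP-dependent chromatin remodeller of the chromodomain helicase family.

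The libraries held 16581252 to 17096522 counts, of which the imprinted genes took 0.979% and 0.934% in cKO replicates 1 and 2 and 0.832% and 0.932% in control replicates 1 and 2. Chd7 was at 136 and 132 CPM (each count scaled to the size of its library) in the cKO libraries, against 339 and 345 CPM in the control libraries (log2 fold change −1.35, SE 0.05, edgeR adjusted p = 8.7e-05). All 10 markers of the forebrain neuroepithelium were detected, among them the neural progenitor factor Sox2, at 328 and 374 CPM in cKO and 397 and 348 CPM in control libraries. Of these 10 markers 4 were called lower and 0 higher, and they summed to 3066 and 3243 CPM in cKO and 3939 and 3482 CPM in control libraries. Sox1, for which the Cre is named, was among the 4. It was at 139 and 147 CPM in cKO, against 177 and 173 CPM in control libraries (log2 fold change −0.29, SE 0.05, edgeR adjusted p = 0.0311). Markers of other cells differed between the groups as well. The 12 neuronal markers summed to 623 and 644 CPM in cKO and 1069 and 899 CPM in control libraries, and 4 of them were called lower and 0 higher. Of 8 tested erythroid genes 6 were called lower and 0 higher (1893 and 1806 CPM in cKO, against 2849 and 3067 CPM in control libraries, summed over the list), with Hba-a1 listed at 0 in every library. None of 16 mesenchyme and neural crest genes was called by edgeR (1049 and 693 CPM in cKO, against 1054 and 1140 CPM in control libraries), with 4 lower at an unadjusted p under 0.05, 1 lower by DESeq2 and 0 by limma-voom. None of 10 endothelial genes (294 and 297 CPM in cKO, against 348 and 332 CPM in control libraries) or of 7 genes of microglia and macrophages (26.5 and 21.7 CPM in cKO, against 30.5 and 28.3 CPM in control libraries) was called by any of these tools. At an unadjusted p under 0.05 by edgeR, 1 endothelial gene was higher and 5 were lower, and 0 of the microglial genes passed. Over all 14235 genes tested, edgeR called 1.57% higher and 2.13% lower at an adjusted p under 0.05. No marker list was tested against these shares. The part of these cells in the results below was not tested. In bulk tissue, fewer cells of a type and less RNA per cell cannot be told apart.

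In the cKO forebrain 4 imprinted genes rose and 2 fell, out of 33 that passed the filter on low counts. Those that rose were Nnat, by 1.97-fold, and Ndn, Mest and Blcap, by 1.26-fold to 1.38-fold. Those that fell were Plagl1 and Peg10, to 0.720 and 0.731 of the control level. A gene was called at an adjusted p under 0.05 in edgeR's quasi-likelihood test, with p-values adjusted over all 14235 genes tested. The 6 calls are 18.2% of the imprinted genes tested, while 3.7% of all genes tested were called (1.57% higher and 2.13% lower). No test was made of that difference in share. The imprinted genes and the lists below were chosen with earlier results of these data known, so no excess can be read from such shares. The median log2 fold change was −0.01 over the 33 imprinted genes and −0.000277 over all genes, and the median of its size without sign was 0.23 and 0.12. The 2 groups did not overlap in CPM at 17 of the 33 genes, or 51.5%, close to the 48.3% among all genes. The 4 genes that did not pass the filter, Phlda2, Slc22a18, Snrpn and Snurf, had at most 10 counts in any library.

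**Figure D1:**
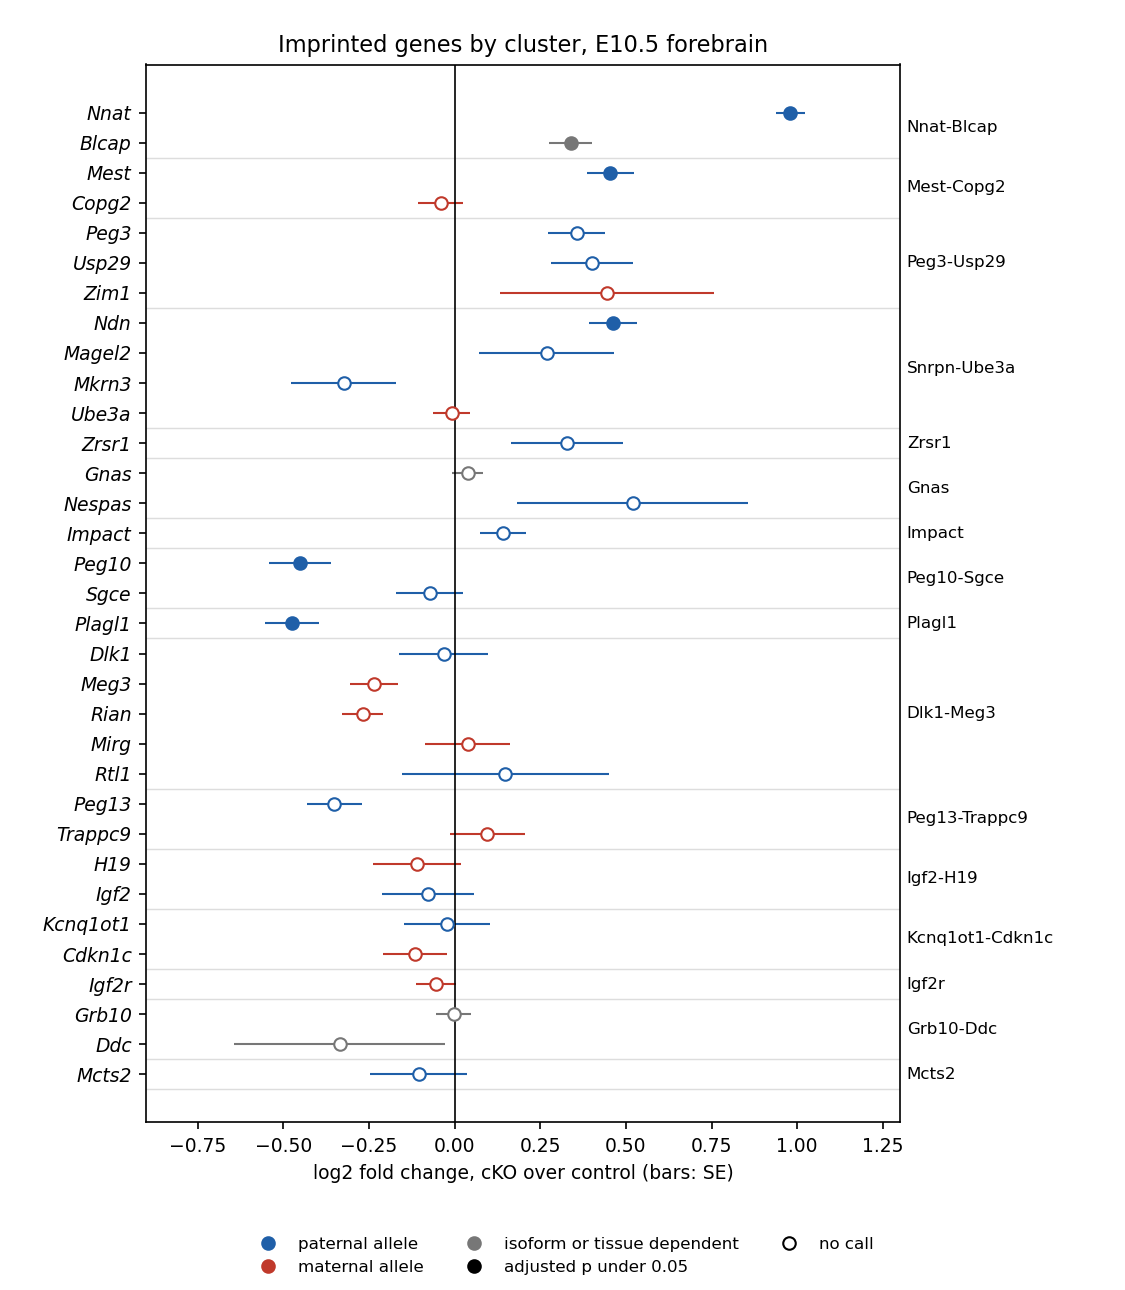
Log2 fold change of the 33 tested imprinted genes, cKO over control, with bars of 1 SE on each side, grouped by locus (names at the right) and coloured by the parental allele usually expressed. Filled points have an adjusted p under 0.05 (edgeR): Nnat, Blcap, Mest and Ndn lie to the right of 0 and Plagl1 and Peg10 to the left. No gene of the maternal class, with 10 tested, is filled, and of all genes tested 3.7% were called.

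Grouped by allele, 19 tested genes are usually expressed from the paternal copy, and 3 of them rose (Nnat, Mest, Ndn) and 2 fell (Plagl1, Peg10). Their log2 fold changes ranged from −0.47 to 0.98 with a median of 0.14. Of 10 tested genes expressed mainly from the maternal copy, 0 were called in either direction by edgeR, with a range of −0.27 to 0.45 and a median of −0.05. At an unadjusted p under 0.05, 0 of them were higher and 2 lower, and DESeq2 called 1 lower and limma-voom 0. The 5 calls are 26.3% of the 19 paternal genes, while 3.7% of all genes tested were called. At that share 0 calls among 10 genes does not set the maternal class apart from other genes. Whether the 2 classes differ was not tested. The fourth gene that rose, Blcap, belongs with Gnas, Grb10 and Ddc to the 4 genes whose imprinting depends on the transcript or tissue. Summed over all 21 listed paternal genes, the libraries held 5322 and 5149 CPM in cKO and 4007 and 4451 CPM in control. The 12 maternal genes summed to 2140.1 and 2032 CPM in cKO and 2110 and 2480 CPM in control libraries. The paternal sums did not overlap between the groups, while the maternal sums did. Without Nnat and Mest, the most abundant of the called paternal genes, the other 19 paternal genes summed to 2007 and 1868 CPM in cKO and 1999.8 and 2259 CPM in control libraries, which overlap.

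Promoter sequences of Nnat, Blcap, Mest, Ndn and Plagl1, 5 of the 6 called genes, and of Peg3 are shown because imprints and the factors that keep them act on such stretches. Each window runs from 250 bases before to 50 after a transcript start in RefSeq, on build GRCm38.p6, 5′ to 3′. Capitals mark TGCCGC on either strand (GCGGCA on the other), the letters bound by the imprint-keeping zinc finger protein ZFP57 where they are methylated.
Nnat (chr2:157559828-157560127, plus strand): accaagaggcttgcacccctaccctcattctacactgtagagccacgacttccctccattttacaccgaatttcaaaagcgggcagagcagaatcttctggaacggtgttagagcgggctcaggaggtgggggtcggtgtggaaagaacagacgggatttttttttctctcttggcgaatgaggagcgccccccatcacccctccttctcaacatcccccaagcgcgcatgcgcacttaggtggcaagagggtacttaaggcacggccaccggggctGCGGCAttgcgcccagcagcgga
Blcap (chr2:157566312-157566611, minus strand): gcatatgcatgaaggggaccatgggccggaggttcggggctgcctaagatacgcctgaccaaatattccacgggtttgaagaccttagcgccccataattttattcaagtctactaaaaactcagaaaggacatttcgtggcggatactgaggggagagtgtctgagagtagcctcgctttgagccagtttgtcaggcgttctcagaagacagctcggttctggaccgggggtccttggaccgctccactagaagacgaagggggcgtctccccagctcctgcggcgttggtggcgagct
Mest (chr6:30737800-30738099, plus strand): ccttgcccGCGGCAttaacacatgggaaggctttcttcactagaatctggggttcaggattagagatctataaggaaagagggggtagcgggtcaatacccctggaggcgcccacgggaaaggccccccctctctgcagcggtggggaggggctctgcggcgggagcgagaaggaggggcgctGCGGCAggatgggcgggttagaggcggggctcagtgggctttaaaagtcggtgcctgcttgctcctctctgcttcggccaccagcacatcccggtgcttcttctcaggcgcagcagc
Ndn (chr7:62348027-62348326, plus strand): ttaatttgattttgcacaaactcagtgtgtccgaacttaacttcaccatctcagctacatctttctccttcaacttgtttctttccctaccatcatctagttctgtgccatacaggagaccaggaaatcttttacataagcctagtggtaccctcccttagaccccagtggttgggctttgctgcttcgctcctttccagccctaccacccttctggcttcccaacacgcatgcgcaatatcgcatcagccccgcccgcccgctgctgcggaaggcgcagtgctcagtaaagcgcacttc
Plagl1 (chr10:13090582-13090881, plus strand): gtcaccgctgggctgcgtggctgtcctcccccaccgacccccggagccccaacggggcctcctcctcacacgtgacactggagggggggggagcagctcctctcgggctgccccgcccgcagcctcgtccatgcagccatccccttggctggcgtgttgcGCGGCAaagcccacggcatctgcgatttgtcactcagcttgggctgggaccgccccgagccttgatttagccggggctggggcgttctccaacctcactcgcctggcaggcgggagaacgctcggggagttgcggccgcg
Peg3 (chr7:6730370-6730669, minus strand): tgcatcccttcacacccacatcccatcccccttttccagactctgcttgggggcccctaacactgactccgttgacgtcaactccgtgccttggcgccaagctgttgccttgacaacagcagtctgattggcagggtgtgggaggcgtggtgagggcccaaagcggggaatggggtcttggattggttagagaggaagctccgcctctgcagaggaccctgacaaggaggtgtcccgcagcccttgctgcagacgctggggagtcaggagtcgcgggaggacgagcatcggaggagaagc

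The motif was found in 1 place in the windows of Nnat and Plagl1 and in 2 places in that of Mest, and in none of the others shown. Of all 32851 promoter windows of this length, 11.6% hold it. Of the 42 windows of 28 imprinted genes, 12 held the motif, or 28.6%, among them overlapping windows of Mest and a window that Snrpn and Snurf share. Chromosome 18, where Impact lies, was left out of the imprinted windows but not of all windows. Mest has 3 windows, and the printed window is the first of those with the most CpG pairs. The Nnat, Blcap and Mest windows each hold 17 CpG pairs, Ndn holds 11, Peg3 holds 13 and Plagl1 holds 26. The median was 13 over the 42 windows of imprinted genes and 7 over all windows. The motif itself holds a CpG pair, and the difference in the share of windows with the motif was not tested. A match is a description of the letters and no evidence of binding. Peg3 and Usp29 start from opposite strands of the same stretch, and their windows share 263 bases.

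The paternally expressed Nnat encodes neuronatin, a small membrane proteolipid of the endoplasmic reticulum. It lies on chromosome 2 (157560078 to 157562525 in the RefSeq annotation of GRCm38.p6) within an intron of Blcap (157556362 to 157566361), on the other strand. Nnat measured 1394 and 1360.1 CPM in cKO replicates 1 and 2, against 713 and 683 CPM in control replicates 1 and 2. Each cKO library was thus well above both controls, and the libraries within a group lay close together. The mean was 1377 ± 24 CPM in cKO and 698 ± 21 CPM in control forebrain (SD, n = 2 each), and the log2 fold change was 0.98 (SE 0.04, edgeR adjusted p = 0.000232). Nnat kept its call in every fit that left out a library, with values between 0.95 and 1.01. The host gene Blcap, named for loss of expression in bladder cancer, has a transcript expressed mainly from the maternal copy in mouse brain. It was at 70.4 and 70.04 CPM in cKO libraries, against 54.5 and 56.5 CPM in control libraries. The groups did not overlap, and the log2 fold change was 0.34 (SE 0.06, edgeR adjusted p = 0.0321). The call of Blcap ended when control replicate 1 was left out (adjusted p = 0.112), and likewise for cKO replicate 1 (0.115) and cKO replicate 2 (0.145). The exons of Blcap share no base with those of Nnat in GENCODE M21.

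Mest, or mesoderm specific transcript, encodes a protein of the alpha/beta hydrolase family and is expressed from the paternal copy. It lies on chromosome 6 (30733506 to 30748466) and overlaps the end of the opposite-strand gene Copg2 (30747554 to 30896815), which encodes a coatomer subunit and is preferentially maternal. Mest was at 1921 and 1920.4 CPM in cKO libraries, against 1294 and 1509 CPM in control libraries. Both cKO libraries were above both controls, which differed more from each other than the cKO libraries did. The log2 fold change was 0.45 (SE 0.07, edgeR adjusted p = 0.0156), with an adjusted p of 0.0527 without cKO replicate 2. Copg2 was at 99.9 and 104 CPM in cKO and 110.4 and 99.8 CPM in control libraries, which overlap (log2 fold change −0.04, SE 0.07, edgeR adjusted p = 0.815). The exons of both genes share 912 bases, 32.9% of the Mest exons, and the recorded counting command used neither strand nor reads shared between genes. Scaled by full exon length, the log2 ratio of Mest over Copg2 was 4.78 and 4.71 in cKO, against 4.06 and 4.43 in control libraries. Those lengths include the 912 shared bases, which may shift the level of the ratio in every library.

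Ndn encodes necdin, a growth suppressor of the MAGE family found in postmitotic neurons, and belongs to the paternally expressed genes of the chromosome 7 locus whose human counterpart is lost in Prader-Willi syndrome. It lies at 62348277 to 62349928. Ndn was at 114 and 116 CPM in cKO libraries, against 88.9 and 78.3 CPM in control libraries, with no overlap. Its log2 fold change was 0.46 (SE 0.07, edgeR adjusted p = 0.0167), and its adjusted p was 0.0826 without cKO replicate 2. The rise of Ndn stood beside a fall in neuronal markers such as Tubb3, at 162 and 180 CPM in cKO and 295 and 244 CPM in control libraries. Magel2, a MAGE gene 27.1 kb farther along, was at 9.34 and 8.40 CPM in cKO and 6.36 and 8.36 CPM in control libraries (log2 fold change 0.27, SE 0.20, edgeR adjusted p = 0.551). The lowest cKO and the highest control library of Magel2 were almost equal. Mkrn3, which encodes a makorin ring-finger protein and lies 67.7 kb from Ndn, was at 11.03 and 9.58 CPM in cKO and 13.4 and 12.4 CPM in control libraries (log2 fold change −0.32, SE 0.15, edgeR adjusted p = 0.331). Neighbouring paternal genes of this locus therefore had values of different sign, and of the listed genes tested there Ndn alone passed the threshold.

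At the other end of that locus, Ube3a encodes a ubiquitin ligase that is expressed from the maternal copy in neurons and from both copies in most other cells. Ube3a was at 186 and 192 CPM in cKO and 183 and 197 CPM in control libraries (log2 fold change −0.01, SE 0.05, edgeR adjusted p = 0.960). The control values enclose the cKO values, and 1803 bases, or 16.5%, of the Ube3a exons lie opposite exons of the RNA Snhg14. Snrpn, a spliceosomal gene, and Snurf, which is encoded on the same transcript, could not be measured from this table. Snrpn had 0 and 0 counts in cKO and 5 and 5 counts in control libraries, and Snurf had 0 in all 4. All 216 exon bases of Snurf in GENCODE M21 lie within exons of Snrpn, so reads there belong to both genes. The exons of Snrpn span 2159 bases in that annotation, most of them outside Snurf. The overlap with Snurf thus does not account for the low counts of Snrpn, and their cause was not tested. No fold change is given for Snrpn or Snurf.

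Plagl1, also called Zac1, encodes a zinc finger transcription factor that is paternally expressed and restrains proliferation. It lies on chromosome 10 (13090832 to 13131694). Plagl1 was at 308 and 307 CPM in cKO libraries, against 465 and 389 CPM in control libraries. Both cKO libraries were below both controls, and the controls differed from each other by more than the cKO libraries did. The log2 fold change was −0.47 (SE 0.08, edgeR adjusted p = 0.0237), and the call ended without cKO replicate 1 (adjusted p = 0.0635) or cKO replicate 2 (0.0941). Hymai, an imprinted RNA that overlaps Plagl1, was at a mean of 1.53 CPM in cKO and 1.66 CPM in control libraries (log2 fold change −0.12, SE 0.45, edgeR adjusted p = 0.926). In other mouse tissues PLAGL1 is known to act on a set of imprinted genes that includes H19, Igf2, Cdkn1c and Dlk1. These 4 genes had log2 fold changes from −0.12 to −0.03 in the cKO forebrain, none of them called, and each was above 0 in the fit without control replicate 2.

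Peg10 is a gene derived from a retrotransposon, needed for the mouse placenta, and it lies head to head with Sgce, the epsilon-sarcoglycan gene, on chromosome 6 (4747306 to 4760517 for Peg10), 102 bases apart. Both are expressed from the paternal copy. Peg10 was at 337 and 322 CPM in cKO libraries, against 404 and 497 CPM in control libraries, with no overlap. The log2 fold change of Peg10 was −0.45 (SE 0.09, edgeR adjusted p = 0.0417). Without control replicate 2, the library with the highest value, it was −0.29 (adjusted p = 0.0220), and without control replicate 1 it was −0.59 (0.00202). The call of Peg10 ended without cKO replicate 1 (adjusted p = 0.0855) or cKO replicate 2 (0.176). Sgce was at 27.3 and 30.6 CPM in cKO and 30.7 and 30.2 CPM in control libraries, which overlap (log2 fold change −0.07, SE 0.10, edgeR adjusted p = 0.767). Whether the head-to-head pair changed differently was not tested.

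**Figure D2:**
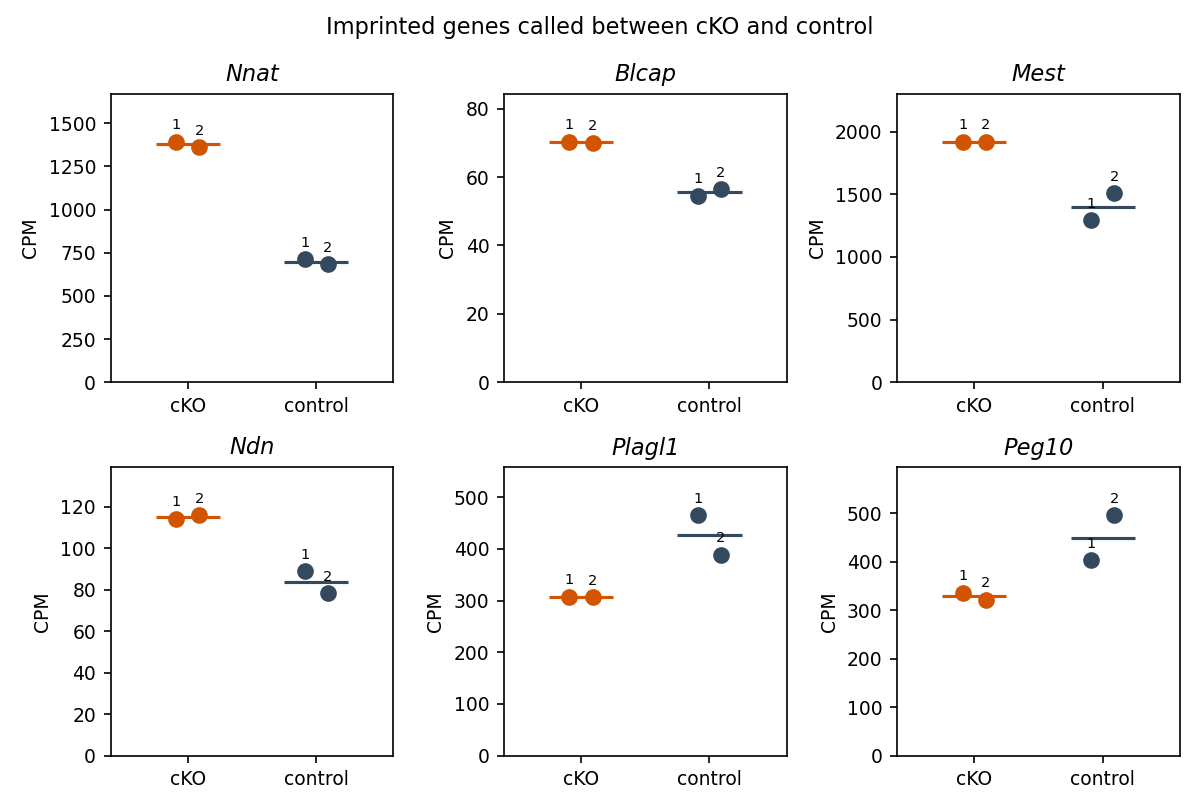
CPM of the 6 called imprinted genes in each library, cKO at the left and control at the right, with the replicate number above each point and a line at the group mean; each vertical axis starts at 0. The 2 groups are apart in every panel, by most in Nnat (1394 and 1360.1 CPM in cKO, against 713 and 683 CPM in control libraries).

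At the Peg3 locus on chromosome 7 all 3 genes had positive values and none was called. Peg3 encodes a zinc finger protein with a part in maternal behaviour and growth in mice, and is paternally expressed, as is Usp29, a ubiquitin-specific peptidase gene. Peg3 was at 243.8 and 244 CPM in cKO libraries, against 173 and 209 CPM in control libraries, with no overlap (log2 fold change 0.36, SE 0.08, edgeR adjusted p = 0.067). Without control replicate 2 the value was 0.50 (adjusted p = 0.00164), and without control replicate 1 it was 0.23 (0.122), so the size of the difference follows which control library is used. Usp29 was at 21.9 and 19.8 CPM in cKO libraries and at 15.8 CPM in both control libraries (log2 fold change 0.40, SE 0.12, edgeR adjusted p = 0.134). The maternally expressed Zim1, an imprinted zinc finger gene, was at 3.56 and 3.96 CPM in cKO and 2.16 and 3.36 CPM in control libraries (log2 fold change 0.45, SE 0.31, edgeR adjusted p = 0.530). Both alleles' genes thus had values on the same side at this locus. A part of the Usp29 exons, 2582 bases, lies opposite exons of Zim3, which was at 0 counts in all 4 libraries.

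The Dlk1-Meg3 locus of chromosome 12 holds paternally expressed protein-coding genes, Dlk1 and Rtl1, and maternally expressed non-coding RNAs, Meg3, Rian and Mirg, which host small nucleolar RNAs and microRNAs. None of the 5 was called. Rian was at 398 and 387 CPM in cKO libraries, against 446 and 499.6 CPM in control libraries (log2 fold change −0.27, SE 0.06, edgeR adjusted p = 0.0573). Meg3 was at 309.9 and 283 CPM in cKO libraries, against 328 and 369.8 CPM in control libraries (log2 fold change −0.23, SE 0.07, edgeR adjusted p = 0.135). For both RNAs the groups did not overlap, with both cKO libraries the lower. Rian passed the threshold without control replicate 1 (−0.35, adjusted p = 0.0190) and was at −0.18 without control replicate 2 (0.116). Mirg, farthest along the locus, was at 19.4 and 17.1 CPM in cKO and 17.6 and 17.9 CPM in control libraries, with overlap (log2 fold change 0.04, SE 0.12, edgeR adjusted p = 0.915). Dlk1, which encodes a membrane protein related to Notch ligands, was at 179.5 and 159 CPM in cKO and 147 and 199 CPM in control libraries. The control values of Dlk1 lie outside the cKO values on both sides (log2 fold change −0.03, SE 0.13, edgeR adjusted p = 0.935). Rtl1, a gene derived from a retrotransposon, was at 2.65 and 3.67 CPM in cKO and 2.94 and 2.77 CPM in control libraries (log2 fold change 0.15, SE 0.30, edgeR adjusted p = 0.860). Scaled by exon length, the log2 ratio of Dlk1 over Meg3 was 0.93 and 0.88 in cKO, against 0.56 and 0.82 in control libraries.

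Igf2, the fetal growth factor, and H19, the non-coding RNA that shares its enhancers, are expressed from the paternal and the maternal copy of chromosome 7. H19 was at 740 and 682 CPM in cKO libraries, between the control values of 645 and 889.96 CPM (log2 fold change −0.11, SE 0.13, edgeR adjusted p = 0.734). Igf2 was at 578 and 479 CPM in cKO and 477 and 637 CPM in control libraries (log2 fold change −0.08, SE 0.13, edgeR adjusted p = 0.832). Control replicate 2 was the highest library and control replicate 1 the lowest for both, so the controls enclosed the cKO libraries. Without control replicate 1 the value of H19 was −0.32 (adjusted p = 0.0460), and without control replicate 2 it was 0.14 (0.297). Summed mesenchymal markers also differed within a group, at 1049 and 693 CPM in cKO replicates 1 and 2 and 1054 and 1140 CPM in control replicates 1 and 2, and their part in these values was not tested. The ratio of the pair varied less, with a log2 ratio of Igf2 over H19 per exon length of −1.56 and −1.71 in cKO, against −1.63 and −1.68 in control libraries. Igf2r, the receptor that clears IGF2 and a maternally expressed gene of chromosome 17, was at 215 and 195 CPM in cKO and 216 and 211 CPM in control libraries (log2 fold change −0.06, SE 0.06, edgeR adjusted p = 0.697).

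Next to Igf2 on chromosome 7, the Kcnq1ot1 locus holds maternally expressed genes that are silenced on the paternal copy by the RNA Kcnq1ot1. Cdkn1c encodes the cyclin-dependent kinase inhibitor p57, which promotes cell cycle exit. Cdkn1c was at 143 and 139.9 CPM in cKO and 137 and 169 CPM in control libraries, with overlap (log2 fold change −0.12, SE 0.09, edgeR adjusted p = 0.592). Kcnq1ot1 was at 32.0 and 28.5 CPM in cKO and 27.4 and 34.1 CPM in control libraries, again with the controls on both sides (log2 fold change −0.02, SE 0.13, edgeR adjusted p = 0.955). Phlda2, a pleckstrin-homology gene that limits placental growth, had 0 and 10 counts in cKO and 2 and 2 counts in control libraries. Slc22a18, a transporter gene, had 5 and 7 counts in cKO and 1 and 1 count in control libraries. Both genes were near the limit of detection and were not tested.

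**Figure D3:**
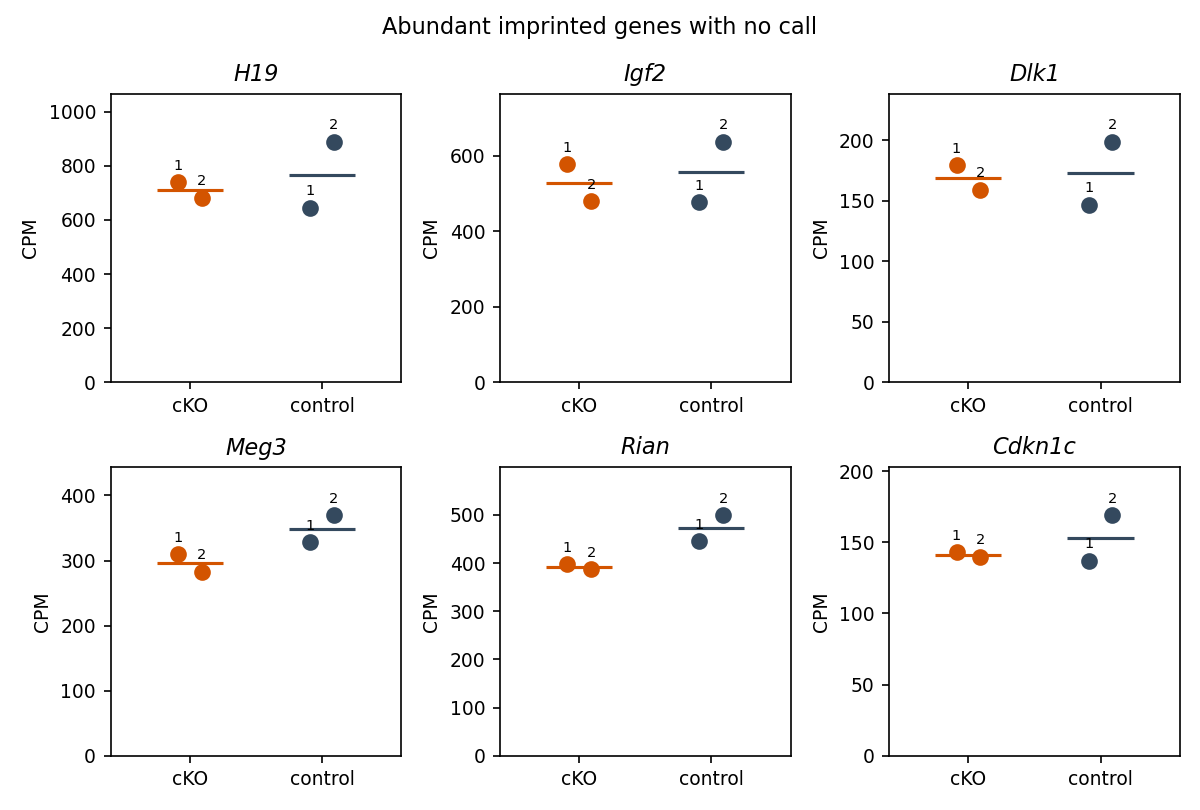
CPM in each library for 6 abundant imprinted genes with no call, cKO at the left and control at the right, with the replicate number above each point, a line at the group mean and vertical axes from 0. For H19, Igf2, Dlk1 and Cdkn1c control replicate 1 is below and control replicate 2 above both cKO libraries, while for Meg3 and Rian both cKO libraries are below both controls.

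The remaining loci held no called gene. Grb10, an adaptor that restrains insulin and IGF signalling and is maternal in most tissues but paternal in neurons, was at 1344 and 1309 CPM in cKO and 1271 and 1388 CPM in control libraries. The controls enclose the cKO values (log2 fold change −0.00309, SE 0.05, edgeR adjusted p = 0.984). Gnas, which encodes the stimulatory G protein subunit and several transcripts of different parental origin, was at 905 and 883 CPM in cKO and 843 and 898 CPM in control libraries (log2 fold change 0.04, SE 0.05, edgeR adjusted p = 0.734). Its paternal antisense RNA Nespas was at 3.86 and 2.54 CPM in cKO and 2.46 and 2.001 CPM in control libraries, and 988 bases of their exons are shared (log2 fold change 0.52, SE 0.34, edgeR adjusted p = 0.491). Ddc, the aromatic amino acid decarboxylase gene beside Grb10, was at 2.41 and 3.85 CPM in cKO and 3.72 and 4.18 CPM in control libraries (log2 fold change −0.33, SE 0.31, edgeR adjusted p = 0.649). The Nespas values did not overlap between the groups, while those of Ddc did. Peg13, a paternal non-coding RNA in an intron of Trappc9, was at 50.4 and 46.7 CPM in cKO and 65.1 and 58.8 CPM in control libraries, without overlap (log2 fold change −0.35, SE 0.08, edgeR adjusted p = 0.0611). The fit without control replicate 2 gave Peg13 an adjusted p of 0.0291. Its host Trappc9, which encodes a subunit of a vesicle-tethering complex, was at 24.6 and 25.9 CPM in cKO and 25.01 and 22.2 CPM in control libraries, with overlap (log2 fold change 0.10, SE 0.11, edgeR adjusted p = 0.723). Impact, which encodes a regulator of translation and is paternal, was at 65.5 and 64.7 CPM in cKO and 56.7 and 61.3 CPM in control libraries, without overlap (log2 fold change 0.14, SE 0.07, edgeR adjusted p = 0.340). Zrsr1 and Mcts2 are paternal genes that arose by retrotransposition into an intron of another gene. Zrsr1 was at 9.94 and 10.9 CPM in cKO and 8.76 and 7.83 CPM in control libraries, without overlap (log2 fold change 0.33, SE 0.16, edgeR adjusted p = 0.358). Mcts2 was at 13.6 and 16.0 CPM in cKO and 15.1 and 16.8 CPM in control libraries, which overlap (log2 fold change −0.11, SE 0.14, edgeR adjusted p = 0.772).

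Per kilobase of full exon length, Nnat was the highest of the imprinted genes in the cKO forebrain and second to Mest in the control. That length includes 912 bases of Mest, or 32.9%, that are shared with Copg2. Reads common to both genes were left out by the recorded counting. The Mest values may therefore be too low by this measure, and the order of Mest and Nnat depends on the length used. Nnat averaged 957 ± 16 CPM per kilobase in cKO and 486 ± 15 in control libraries, and Mest 692 ± 0.20 in cKO and 505 ± 55 in control libraries (SD, n = 2 each). At these full lengths, the control levels of Mest and Nnat lie within the spread between replicates. H19 followed at 311 ± 18 in cKO and 336 ± 76 in control libraries. Grb10 was at 259 ± 4.8 in cKO and 259 ± 16 in control libraries, and Igf2 at 101 ± 13 in cKO and 106 ± 22 in control libraries. The places of H19, Grb10, Igf2 and Gnas, from the third to the sixth, were the same in both groups. At the other end, Zim1, Rtl1, Kcnq1ot1 and the 4 untested genes had group means under 0.5 CPM per kilobase in both groups. These values use exon lengths of GENCODE M21, which may differ from those of the authors' annotation.

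For each called gene, the 3 nearest tested genes on each side and those overlapping it were read from the annotation. Of 29 such genes outside the list 2 were called, while 3.7% of all genes tested were called. No test was made of that difference. Around Nnat and Blcap, the nearest genes Src (log2 fold change 0.11, SE 0.07, edgeR adjusted p = 0.511) and Ctnnbl1 (0.02, SE 0.07, adjusted p = 0.943) had no call. Around Mest, Cep41 was at 0.10 (SE 0.09, adjusted p = 0.631), and Klf14 was too low to measure well, at a mean of 0.56 CPM in cKO and 0.98 CPM in control libraries. Beyond Ndn, at 111.9 kb, Peg12, a paternally expressed gene also called Frat3, fell (76.1 and 76.5 CPM in cKO, against 104 and 92.1 CPM in control libraries; log2 fold change −0.36, SE 0.07, edgeR adjusted p = 0.0407). Within this locus Ndn and Peg12 thus passed the threshold in opposite directions. Beside Plagl1, Ltv1 (−0.02) and Phactr2 (−0.05) had no call, and Fuca2, a fucosidase gene 368.9 kb away, rose (0.61, SE 0.13, edgeR adjusted p = 0.0492). Beside Peg10, Casd1 (−0.08) and Ppp1r9a (0.07) had no call.

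A list of 50 further genes known as imprinted in mouse, some of them only in the placenta, gave 2 genes that rose and 2 that fell. These are 11.1% of the 36 tested, while 3.7% of all genes tested were called, and no test was made of that difference. The median log2 fold change of the list was −0.06. Ano1, a chloride channel gene imprinted in the placenta, was at 56.5 and 61.1 CPM in cKO libraries, against 24.2 and 33.96 CPM in control libraries (log2 fold change 1.01, SE 0.14, edgeR adjusted p = 0.0129). Asb4, a gene near Peg10, rose as well (38.7 and 38.4 CPM in cKO, against 24.7 and 27.9 CPM in control libraries; log2 fold change 0.55, SE 0.09, edgeR adjusted p = 0.0257). Th, the tyrosine hydroxylase gene of catecholamine neurons, fell to 0.301 and 0.651 CPM in cKO, against 4.38 and 3.88 CPM in control libraries (log2 fold change −3.09, SE 0.42, edgeR adjusted p = 0.0110), and Peg12 is the other that fell. The paternal gene Zdbf2 was at 149.6 and 150.3 CPM in cKO and 149.1 and 138 CPM in control libraries (log2 fold change 0.06, SE 0.06, edgeR adjusted p = 0.626). Commd1, the host of Zrsr1, had a log2 fold change of 0.01, and Kcnk9, a neighbour of Peg13, had 2 and 19 counts in cKO and 0 and 8 in control libraries.

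Among 13 tested genes that establish or keep imprints, 0 were called in either direction by edgeR, DESeq2 or limma-voom. By edgeR, 3.7% of all genes tested were called, and at that share 0 calls among 13 genes does not set this list apart. At an unadjusted p under 0.05 by edgeR, 1 of the 13 genes was higher and 0 lower. They had log2 fold changes from −0.03 to 0.31 and a median of 0.01. Zfp57, which binds methylated imprinting control regions, was at 0.04 (SE 0.06, adjusted p = 0.779). Its corepressor gene Trim28 was at 0.02, and Dnmt1, the maintenance DNA methyltransferase gene, at −0.02. The largest of the 13 values was that of Dnmt3b, a de novo methyltransferase gene, at 52.9 and 50.9 CPM in cKO and 38.6 and 44.9 CPM in control libraries (log2 fold change 0.31, SE 0.09, edgeR adjusted p = 0.123). Dppa3 had 0 counts in all 4 libraries.

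**Figure D4:**
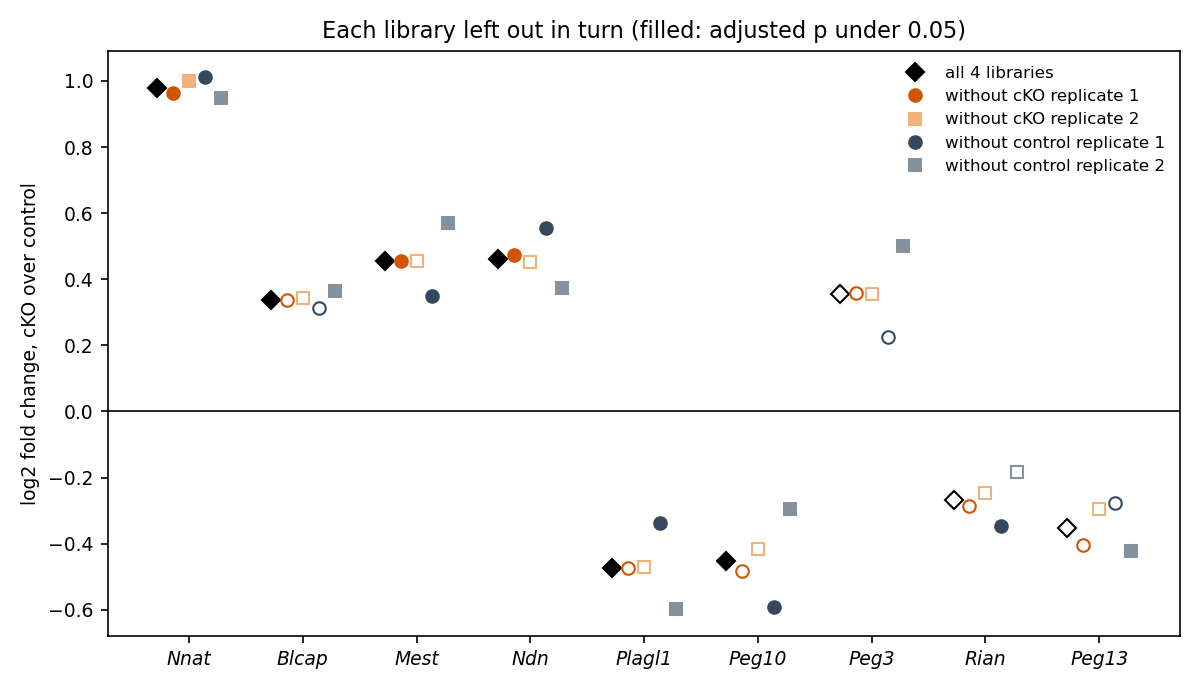
Log2 fold change, cKO over control, of the 6 called genes and of Peg3, Rian and Peg13, from all 4 libraries and with each library left out; filled symbols have an adjusted p under 0.05 (edgeR). The sign is the same in all 5 fits for each of these 9 genes, and Nnat alone is filled in all 5.

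Leaving out a library changed how many imprinted genes were called. Without cKO replicate 2, Nnat was the only one called, and without cKO replicate 1 the calls were Nnat, Mest and Ndn. Without control replicate 1, 3 were called higher and 4 lower, H19 and Rian joining the lower ones and Blcap leaving the higher ones. Without control replicate 2, 5 were higher and 3 lower, Peg3 and Peg13 being added. In the authors' deposited table, at an adjusted p under 0.05, 4 imprinted genes were higher and 4 lower, and 5 of the 6 genes called here were among them. Blcap had an adjusted p of 0.057 in the authors' deposited table. Peg3 (0.00256), Rian (0.00271) and Meg3 (0.0437) passed the threshold in the authors' deposited table and had no call by edgeR on all 4 libraries. The log2 fold changes of the authors' deposited table differed from those given here by at most 0.00313 over the tested imprinted genes.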

How the data were processed

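Poly(A) RNA libraries were made from total RNA with a VAHTS Universal V8 kit, per the labels' protocols. The submitters' processing notes name HISAT2, featureCounts, DESeq2 and mm10, the UCSC name of GRCm38. Per the file headers, featureCounts 2.0.1 made the deposited raw counts per gene from exon-mapped read pairs, with the UCSC RefSeq genes of mm10 and no option for strand or for reads shared by genes. The authors' deposited comparison table holds log2 fold changes, p-values and normalized counts (signal scaled by 1 constant per library), plus a standard error and a Wald statistic (a score, the latter not used).

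Here, genes were kept by filterByExpr (minimum count 10; 14235 genes), scaled by TMM and tested with edgeR 4.0.16 under R 4.3.3 (glmQLFit, glmQLFTest, no covariate, Benjamini-Hochberg over all genes). Groups follow the genotype labels, and 0 columns had no sample. The SE is the log2 fold change over the root of F. The common biological coefficient of variation was 0.0785 and totals were 16581252 to 17096522 counts. Replicates differed by more than counting noise (chi-square per degree of freedom 4.69 for cKO and 5.57 for control). The fit was tested on simulated data. RefSeq matched 36 of the 37 genes and GENCODE M21 all 37. The members, lists and rules were chosen with earlier results of these data known. Named were all members, Chd7, called genes of the further imprinted and maintenance lists, genes fixed by name and markers among the 3 most abundant of a list. Sox1, neighbours, promoters and genes of the maintenance list without a call were chosen after their values were seen. Alternatives were other scalings, filters, DESeq2 1.42.0, limma-voom (limma 3.58.1), a replicate block and each library left out. A fit without a library assumes that its group's lone library varies like the other group's.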

Additional observations from a re-analysis of the deposited data

How the results depend on the processing

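The 6 calls held, and no other imprinted gene was called, under both other scalings (size factors of DESeq2 and upper quartiles), both other filters (none, or 5 CPM on average) and limma-voom. The DESeq2 Wald test also held them and added Peg3 and Rian. With each library left out in turn, imprinted genes called higher numbered 1 to 5 and lower 0 to 4; over all genes the range was 80 to 351 higher and 131 to 418 lower. Replicate numbers were not shown to pair the samples (the differences between replicates 1 and 2 in cKO and control correlated at −0.0531 across genes). With the replicate number as a block, 3 imprinted genes were called higher and 1 lower, and 137 of all genes higher; Blcap (adjusted p = 0.0722) and Peg10 (0.0696) had no call.

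Of 33 tested imprinted genes 14 changed sign under some alternative, none of them called in all 4 libraries. Upper-quartile scaling put Grb10 at 0.011 and Ube3a at 0.0054. Leaving out a library gave log2 ranges of −0.26 to 0.045 (Cdkn1c), −0.11 to 0.034 (Copg2), −0.23 to 0.20 (Dlk1), −0.0060 to 0.085 (Gnas), −0.065 to 0.062 (Grb10), −0.32 to 0.14 (H19), −0.27 to 0.15 (Igf2), −0.13 to 0.015 (Igf2r), −0.17 to 0.15 (Kcnq1ot1), −0.22 to 0.0067 (Mcts2), −0.054 to 0.13 (Mirg), −0.10 to 0.36 (Rtl1), −0.16 to 0.0079 (Sgce) and −0.059 to 0.045 (Ube3a). Without a change of sign, leaving out a library moved values without a call by over 1.5 times in Ddc (−0.71 to −0.037), Impact (0.086 to 0.20), Magel2 (0.086 to 0.48), Meg3 (−0.32 to −0.14), Nespas (0.19 to 0.79), Peg3 (0.23 to 0.50), Trappc9 (0.014 to 0.18) and Zim1 (0.16 to 0.80). The cause was not tested. Phlda2, Slc22a18, Snrpn and Snurf had too few counts for a test.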
